A study of Homo sapiens with 21 samples.

Results

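The genes that make, carry, sense and degrade retinoic acid were examined for changes in chromatin accessibility after disruption of the BAF chromatin remodelling complex. All consensus ATAC-seq sites named for RARA, RARB, RARG, RXRA, RXRB, RXRG, CRABP2, ALDH1A2, CYP26A1 or CYP26B1 in the deposited nearest-gene annotation were taken, which gave 169 of 367900 sites. Of these, 164 passed the filter on low counts and were tested, and the 5 that did not were distal CYP26B1 sites. Cells of the human neuroblastoma line SK-N-BE(2) were transduced with lentivirus carrying short hairpin RNAs (shRNAs) and profiled after 72 h. The 7 groups of 3 libraries were Control, single silencing of ARID1A with shARID1A.2 or shARID1A.4, single silencing of ARID1B with shARID1B.2 or shARID1B.3, and silencing of both with the combinations shARID1A/B.2.3 and shARID1A/B.4.2. ARID1A and ARID1B are structural subunits of BAF. By the labels all groups were transduced with shRNA-encoding lentivirus, and the Control vector is not named there. The deposited count columns of the Control libraries are headed NSC, an abbreviation not spelled out there. Other assays of the study used a non-silencing shRNA as control.

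Retinoic acid is made from retinaldehyde by ALDH1A2, is handed to nuclear receptors by the binding protein CRABP2, and is cleared by the cytochrome P450 enzymes CYP26A1 and CYP26B1. The receptors RARA, RARB and RARG bind it as heterodimers with RXRA, RXRB or RXRG on response elements made of direct repeats of a short half-site. RARB and CYP26A1 are classical direct targets with such elements in their promoters. Retinoids drive differentiation of neuroblastoma cells and are used in the treatment of the disease.

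ATAC-seq counts the insertions of the Tn5 transposase into open DNA. Accessibility is given here as CPM (counts scaled to library size after TMM), as values per library or as the mean ± SD of the 3 libraries of a group. Sites were called closed where accessibility fell and opened where it rose at an edgeR false discovery rate (FDR) below 0.01 over all 357029 tested sites. Libraries held 16140029 to 44472230 reads in sites. In a population of cells, fewer cells with an open site and less opening per cell cannot be told apart, and a site need not regulate the gene it is named for. The libraries of a group are described as biological triplicates, without saying whether each came from a transduction of its own, and p-values measure the spread between them. As a check of the cell type, promoter sites of the sympathoadrenal markers PHOX2A, HAND2, TH and DBH were read, with 2.06 to 59.8 CPM over the libraries, whereas GATA3, ISL1 and MYCN had no site of that class under their name. Of 9 markers of other cell types, CDH5 had a promoter site, with 1.23 to 2.75 CPM.

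Combined silencing, taken as the mean of both combinations against Control, closed 43 of the 164 retinoid gene sites and opened 3. Over all tested sites, 10.3% closed and 3.43% opened, against 26.2% and 1.83% here. The median log2 change was -0.14 over the retinoid sites and 0.03 over all sites. At 25 of the 43 closed sites the log2 fall was at least 1, a share not counted over all closed sites. All 6 combination libraries lay below all 3 Control libraries at 40 of the 164 sites, against 10.8% of all tested sites, and above them at 4, against 4.85%. Closed sites were found near 7 of the 10 genes, namely RARA, RARB, RXRA, CRABP2, ALDH1A2, CYP26A1 and CYP26B1. This number depends on how many sites each gene has, from 1 tested site at RXRB to 59 at CYP26B1. Of the genes without a closed site, RARG had 2 tested sites, RXRB 1 and RXRG 33. The number was not set against that for all genes, so it does not set the retinoid genes apart.

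**Figure D1:**
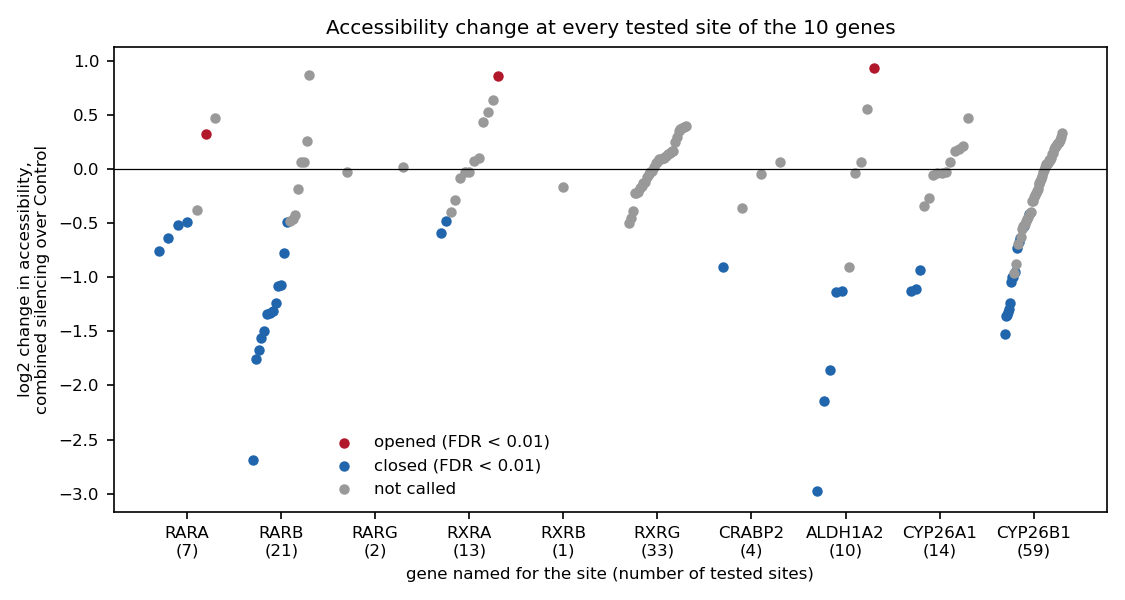
Each point is the log2 change in accessibility of 1 tested site after combined silencing over Control, grouped by the gene named for the site and ordered by size within a gene. Closed sites (blue) reached -2.97 near ALDH1A2 and -2.69 near RARB, whereas all 33 RXRG sites were uncalled (grey).

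The split by role was uneven. Among the RAR genes 17 of 30 sites closed and 1 opened, among the RXR genes 2 of 47 closed and 1 opened, and among the binding protein and enzyme genes 24 of 87 closed and 1 opened. No test of these shares against each other was made, since neighbouring sites share a locus. Without the 21 RARB sites, 30 of 143 sites were closed, and without the 59 tested CYP26B1 sites, 28 of 105.

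RARB carried the most closed sites for its number, with 13 of 21 closed and none opened. This receptor is itself induced by retinoic acid. Their log2 changes ran from -2.69 to -0.49, and 14 RARB sites had all combination libraries below all Control libraries. Although 5 of the closed sites were deposited as intergenic, from -277 to -89.8 kb of the annotated transcription start site (TSS), all 13 lie inside the GENCODE v44 span of RARB, chr3:24687887-25597932 (GRCh38), which includes transcripts with starts further upstream. None of the 13 touches a GENCODE exon.

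The RARB site with the smallest p-value lay at -89.8 kb (chr3:25338004-25338832, in an intron of the long RARB transcripts). Control libraries measured 6.26, 6.04 and 6.17 CPM there. The libraries of shARID1A/B.2.3 measured 2.20, 2.58 and 1.89 CPM, and those of shARID1A/B.4.2 1.75, 1.70 and 1.44 CPM. Every combination library was lower than every Control and every single-shRNA library, the latter ranging from 3.05 to 5.49 CPM. The log2 change was -1.67 (SE 0.13, FDR 1.45e-19), and the combinations were lower than the mean of the single-shRNA groups by a log2 change of -1.04 (SE 0.11, FDR 2.13e-13).

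The largest fall near RARB was at -272 kb (chr3:25155623-25156358), a site below the level required of named sites and chosen here for its value. Control libraries measured 2.50, 3.08 and 2.85 CPM, and the 6 combination libraries 0.220 to 0.782 CPM. Single silencing had already lowered it, to 1.33 ± 0.0284 CPM (shARID1A.2), 0.616 ± 0.280 (shARID1A.4), 0.638 ± 0.188 (shARID1B.2) and 0.460 ± 0.124 (shARID1B.3). The log2 change was -2.69 (SE 0.22, FDR 7.29e-19) after combined silencing, -1.61 after ARID1A silencing and -2.35 after ARID1B silencing. The combinations did not pass the test against the single-shRNA groups here (log2 difference -0.71, FDR 0.016). Its central 300 bases (chr3:25155841-25156140, plus strand, GRCh38) are shown because this is the RARB element that lost most accessibility, with capitals marking the single match to the GATA motif AGATAA.

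RARB -272 kb: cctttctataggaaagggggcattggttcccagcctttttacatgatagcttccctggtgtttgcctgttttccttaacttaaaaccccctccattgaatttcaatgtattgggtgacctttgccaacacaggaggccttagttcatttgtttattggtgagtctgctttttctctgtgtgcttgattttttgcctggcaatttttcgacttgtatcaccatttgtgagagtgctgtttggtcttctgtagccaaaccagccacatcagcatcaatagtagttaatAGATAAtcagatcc

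Within the shorter RARB transcript, closed sites ran from 9.56 to 99.8 kb downstream of the TSS. The most accessible of them, at 26.8 kb (chr3:25453690-25456515), fell from a Control mean of 15.2 ± 0.558 CPM to 12.1 ± 0.965 (shARID1A/B.2.3) and 9.66 ± 0.478 (shARID1A/B.4.2), a log2 change of -0.49 (SE 0.09, FDR 3.49e-06). This site passed as lower after ARID1B silencing (log2 change -0.65) and not after ARID1A silencing (-0.15, FDR 0.34). It measured 10.1 ± 0.528 CPM with shARID1B.2 and 9.28 ± 0.149 with shARID1B.3, but 13.1 ± 0.684 with shARID1A.2 and 14.4 ± 0.234 with shARID1A.4, and ARID1A minus ARID1B silencing gave a log2 difference of 0.51 (SE 0.07, FDR 1.07e-07).

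No change passed the test at the promoter of the shorter RARB transcript. At the site over the TSS (chr3:25427701-25428895) Control libraries measured 12.3, 14.1 and 14.5 CPM, those of shARID1A/B.2.3 11.2, 11.8 and 12.1 CPM, and those of shARID1A/B.4.2 12, 12 and 13.3 CPM. The groups overlapped, and the log2 change of -0.18 (SE 0.09, FDR 0.16) missed the threshold. Scaling of the libraries on promoter sites moved the median of all sites from 0.03 to -0.20, and the RARB promoter then passed at -0.42 (FDR 2.18e-05). With 11.4 CPM per kb in Control, this RARB promoter was more accessible for its length than any other site nearest to a TSS of these genes. RARB has other RefSeq promoter windows. The one at chr3:24829071-24829370 is covered by a site named for LOC101927874, which did not pass (log2 change 0.04, FDR 0.85). Those at chr3:25340552-25340851 and chr3:25458060-25458359 held no site, and the closed site at 30.3 kb starts just past the latter.

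Direct repeats of a half-site, spaced by 1, 2 or 5 bases, were searched on both strands, where a half-site read AGGTCA or its relative AGTTCA, and likewise GGGTCA or its relative GGTTCA. Among the 19 RefSeq promoter windows (250 bases before to 50 after a start, GRCh38) of the 10 genes, RARB and CYP26A1 each had 1 match, both with a spacing of 5 bases. The elements are shown with 30 bases each, the repeat in capitals, because they are the response elements through which both promoters are known to answer retinoic acid. The first lies at chr3:25428203-25428232 on the plus strand and the second at chr10:93073797-93073826 on the minus strand.

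RARB promoter element: cgggtagGGTTCACCGAAAGTTCActcgca

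CYP26A1 promoter element: gacaattAGTTCACCCAAAGTTCAtcttta

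A repeat of spacing 5 occurred in 0.0883% of 35116 RefSeq promoter windows, and any of the 3 spacings in 0.259%. In the central 300 bases of sites, any of them occurred in 3 of 164 retinoid gene sites and in 0.801% of all tested sites. Those 3 were the RARB promoter, an uncalled CYP26B1 site and the closed RARB site at 57.6 kb, whose log2 change was -1.08. Neither of the promoters shown above lost accessibility past the threshold with TMM scaling over all sites. A match is a description of sequence and not evidence of binding.

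For RARA, the broadly expressed retinoic acid receptor, 4 of 7 sites closed and 1 opened. The closed sites lay at -19.2, -15.1, -11.7 and 5.03 kb, with log2 changes from -0.76 to -0.49, and at none of them were all combination libraries below all Control libraries. At -19.2 kb (chr17:40306815-40307731) Control libraries measured 13.9, 10.6 and 14.1 CPM, shARID1A/B.2.3 libraries 10.8, 8.99 and 12 CPM, and shARID1A/B.4.2 libraries 8.24, 5.34 and 6.08 CPM. Only the shARID1A/B.4.2 libraries stood clear of Control. Tested alone, the log2 change was -0.97 with shARID1A/B.4.2 (FDR 2.67e-09) and -0.29 with shARID1A/B.2.3 (FDR 0.072). The reverse held at -11.7 kb (chr17:40314557-40314957), with a log2 change of -1.44 with shARID1A/B.2.3 (FDR 4.05e-10) and -0.07 with shARID1A/B.4.2 (FDR 0.85).

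The opened RARA site (chr17:40316508-40318911) is annotated as a promoter and overlaps an internal RefSeq promoter window of the gene. Control libraries measured 14.8, 12.1 and 16.1 CPM, and the combination libraries 15.4 to 19.2 CPM, so that the groups overlapped. The log2 change was 0.32 (SE 0.09, FDR 0.0040). This call was lost without Control replicate 1 (FDR 0.012) or Control replicate 2 (FDR 0.073) and with scaling on promoter sites (log2 change 0.09, FDR 0.43). Promoters as a class opened in 33.4% of 12310 tested sites.

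Neither of the 2 RARG sites changed past the threshold. The RARG promoter measured 16.6 ± 2.56 CPM in Control against 15.4 ± 2.42 (shARID1A/B.2.3) and 18.4 ± 1.07 (shARID1A/B.4.2), a log2 change of 0.02 (SE 0.09, FDR 0.93). The intronic site at 9.90 kb, with a log2 change of -0.02 (FDR 0.92), passed as lower with scaling on promoter sites (-0.25, FDR 0.0090).

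Among the RXR genes, which encode the shared heterodimer partners, RXRA had 2 closed and 1 opened of 13 sites. The first of the 13 starts at chr9:134396291, inside the GENCODE span of RXRA (chr9:134317098-134440585). Sites in the part of the gene before it carry other names and are not counted. The closed intronic sites at 7.52 and 28.6 kb changed by -0.48 (SE 0.12, FDR 9.56e-04) and -0.59 (SE 0.12, FDR 3.81e-05). At 43.3 kb, downstream of the annotated end of RXRA (chr9:134449298-134450479), Control libraries measured 3.13, 3.21 and 3.29 CPM. The shARID1A/B.2.3 libraries had 6.96, 4.60 and 6.86 CPM and the shARID1A/B.4.2 libraries 5.29, 5.48 and 6.17 CPM, all above Control. Combined silencing gave a log2 change of 0.86 (SE 0.13, FDR 1.63e-07), and the site also opened after ARID1A silencing (0.72, FDR 4.83e-05) and after ARID1B silencing (0.53, FDR 0.0050). With ARID1B the call rested on shARID1B.3 (0.80, FDR 1.6e-05), as shARID1B.2 gave 0.27 (FDR 0.43), and no retinoid site opened after ARID1B silencing with DESeq2, with scaling on promoter sites or without any 1 of the Control libraries, shARID1B.2 replicates 2 and 3 or shARID1B.3 replicates 1 and 2.

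RXRG had more sites than any other of the receptors and none of the 33 was called after combined silencing. Its log2 changes ran from -0.50 to 0.40 with a median of 0.06. The site nearest to the TSS (chr1:165443437-165445732) measured 8.59 ± 1.30 CPM in Control against 8.01 ± 0.922 (shARID1A/B.2.3) and 8.65 ± 0.621 (shARID1A/B.4.2). No RXRG site was called with scaling on promoter sites either. The smallest p-value belonged to an intronic site at 22.7 kb (log2 change 0.38, SE 0.16, FDR 0.093). The single RXRB site gave -0.17 (SE 0.17, FDR 0.58). Sites over the promoters of RXRA and RXRB carry the names of the neighbouring genes MIR4669 and SLC39A7 and are therefore not counted above. These 3 sites did not pass the test, with log2 changes of 0.34 (FDR 0.032) and -0.08 (FDR 0.81) at RXRA and 0.24 (FDR 0.036) at RXRB.

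ALDH1A2, the enzyme that makes retinoic acid, had the site with the largest fall among the 10 genes, followed by RARB. Of its 10 sites 5 closed, all of them from 46.0 to 110 kb downstream of the annotated TSS. The first lies in the last part of the gene, and the other 4 lie beyond its end (GENCODE span chr15:57953424-58497866, minus strand), where no coding gene is annotated. The strongest by p-value was at 65.2 kb (chr15:57947159-57950723). Control libraries measured 17.0, 13.1 and 16.5 CPM there, shARID1A/B.2.3 libraries 3.74, 3.72 and 3.87 CPM, and shARID1A/B.4.2 libraries 5.06, 5.11 and 4.45 CPM. Single-shRNA libraries lay between, from 6.17 to 10.9 CPM, without overlap with Control or the combinations. The log2 change was -1.85 (SE 0.10, FDR 7.90e-29), and combined against single silencing gave -0.91 (FDR 9.22e-16).

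At 103 kb (chr15:57911098-57911832) ALDH1A2 showed the largest fall of all sites examined. Control libraries measured 5.0, 3.86 and 4.65 CPM. The combination libraries had 0.394, 0.395 and 0.791 CPM (shARID1A/B.2.3) or 0.538, 0.874 and 0.557 CPM (shARID1A/B.4.2). The highest combination library was thus well below the lowest Control library. The log2 change of -2.97 (SE 0.18, FDR 7.13e-26) compares with -1.95 after ARID1A silencing (FDR 1.32e-16) and -1.71 after ARID1B silencing (FDR 3.55e-15). Its central 300 bases (chr15:57911316-57911615, plus strand, GRCh38) are shown as the element that closed most. They held none of the repeats, nor the AP-1 motif TGANTCA or the GATA motif AGATAA, so that nothing is in capitals. Other forms of the GATA motif were not searched, and the bases shown hold TGATAA.

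ALDH1A2 103 kb: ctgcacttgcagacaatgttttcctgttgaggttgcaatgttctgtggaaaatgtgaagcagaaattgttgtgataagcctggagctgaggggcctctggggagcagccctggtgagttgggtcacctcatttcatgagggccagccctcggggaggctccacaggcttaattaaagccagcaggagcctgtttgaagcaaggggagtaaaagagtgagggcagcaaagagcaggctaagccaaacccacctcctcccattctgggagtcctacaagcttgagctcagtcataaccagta

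Further out, at 110 kb (chr15:57903260-57904521), accessibility fell from a Control mean of 4.50 ± 0.169 CPM to 0.681 ± 0.0665 (shARID1A/B.2.3) and 1.51 ± 0.0585 (shARID1A/B.4.2), a log2 change of -2.15 (SE 0.16, FDR 3.79e-21). The remaining closed sites changed by -1.14 at 46.0 kb and -1.13 at 91.0 kb. The promoter site of ALDH1A2 (chr15:58064988-58066866) did not pass the test. It measured 7.24 ± 1.69 CPM in Control against 6.30 ± 0.897 (shARID1A/B.2.3) and 8.03 ± 0.302 (shARID1A/B.4.2), with a log2 change of -0.03 (SE 0.11, FDR 0.90). A weak site at -56.9 kb, over the antisense gene ALDH1A2-AS1, opened from 0.525 ± 0.140 to 0.967 ± 0.460 and 1.04 ± 0.296 CPM (log2 change 0.94, SE 0.28, FDR 0.0081). Its combination libraries overlapped those of Control, and neither combination passed alone (FDR 0.022 and 0.024). The call was lost with DESeq2, with scaling on promoter sites and with only the compared groups in the model.

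**Figure D2:**
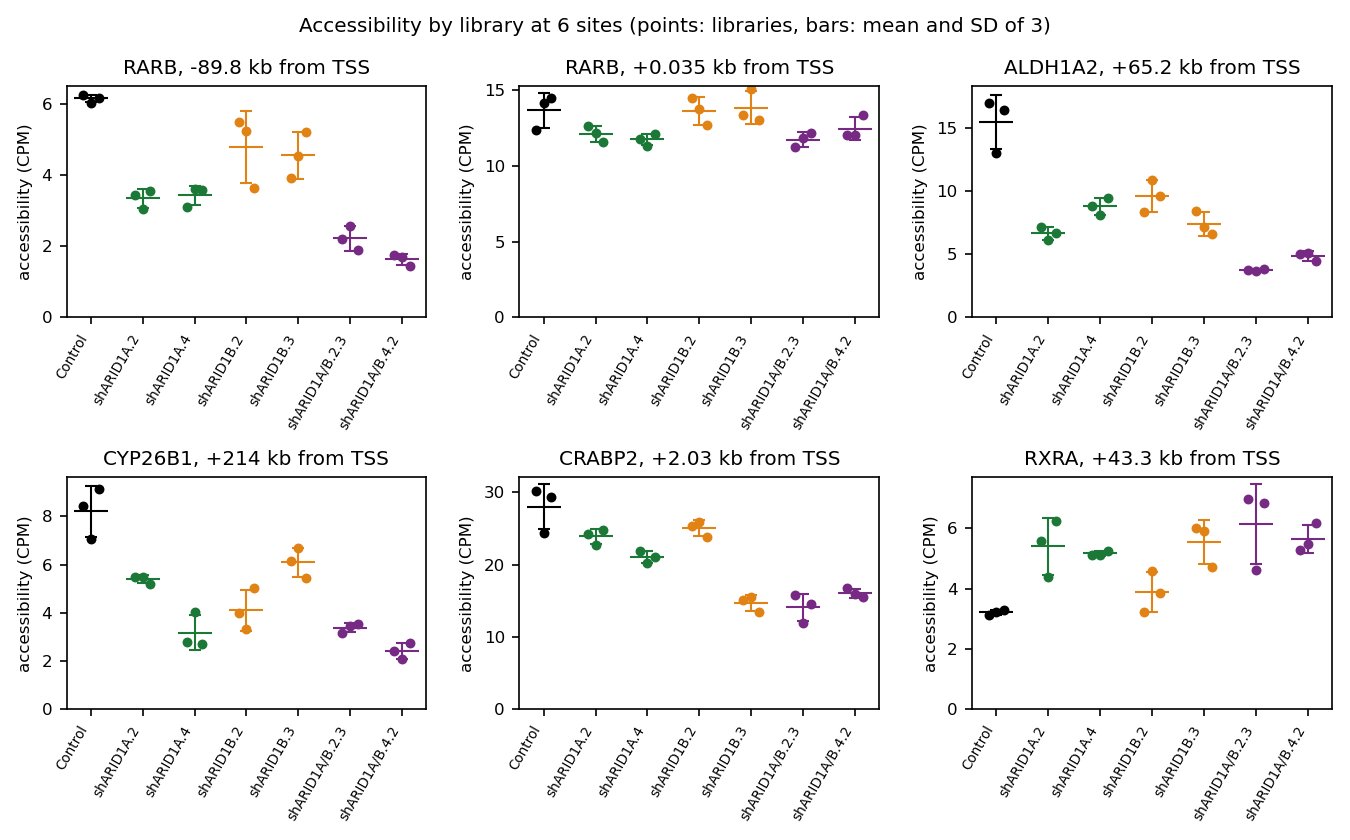
Accessibility in CPM (vertical axes, from 0) of 6 sites in each library, with points for the 3 libraries of a group and bars for their mean and SD. The combinations (purple) lay below Control (black) at the distal RARB, ALDH1A2 and CYP26B1 sites and at CRABP2, overlapped it at the RARB promoter and lay above it at RXRA, with ARID1A groups in green and ARID1B groups in orange.

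CRABP2 had 1 closed site of 4, and it was the most accessible of all sites examined. It lies at 2.03 kb of the annotated TSS (chr1:156709694-156712589) by the deposited annotation, but outside the GENCODE span of CRABP2 (chr1:156699606-156705816, minus strand), upstream of the gene. Control libraries measured 30.1, 24.4 and 29.4 CPM, shARID1A/B.2.3 libraries 15.7, 11.9 and 14.5 CPM, and shARID1A/B.4.2 libraries 16.7, 15.9 and 15.4 CPM. The groups did not overlap. Combined silencing gave a log2 change of -0.90 (SE 0.08, FDR 2.95e-16). The site over the RefSeq promoter window of CRABP2 (chr1:156703496-156706833) held 21.6 ± 3.70 CPM in Control against 17.6 ± 3.23 and 25.1 ± 0.954 in the combinations, with a log2 change of -0.05 (FDR 0.80).

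CYP26A1, the retinoic acid hydroxylase, had 3 closed sites of 14, at 15.1, 120 and 126 kb, with log2 changes of -1.11, -0.93 and -1.12 from Control levels of 1.14 to 1.59 CPM. Its promoter (chr10:93071872-93075411), which holds the second response element shown above, measured 14, 12.9 and 13.3 CPM in Control, 13.8, 10.4 and 12.1 CPM under shARID1A/B.2.3, and 14.6, 12.2 and 14.9 CPM under shARID1A/B.4.2. These groups overlapped, with a log2 change of -0.05 (SE 0.09, FDR 0.77). With scaling on promoter sites it passed as lower (-0.29, FDR 0.0037).

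CYP26B1, the second of the clearing enzymes, closed at 15 of 59 tested sites and opened at none. The closed sites spread from -78.9 to 292 kb and changed by -1.52 to -0.41. Of these, 2 upstream sites lie in introns of the neighbouring gene EXOC6B and 13 where no coding gene is annotated. At 214 kb (chr2:71929369-71930849), the site with the smallest p-value, Control libraries measured 8.42, 7.07 and 9.14 CPM, shARID1A/B.2.3 libraries 3.15, 3.46 and 3.52 CPM, and shARID1A/B.4.2 libraries 2.42, 2.07 and 2.74 CPM. The combinations lay wholly below Control, and the log2 change was -1.52 (SE 0.12, FDR 1.73e-19). Single silencing lowered this site to between 3.17 ± 0.740 CPM (shARID1A.4) and 6.10 ± 0.614 CPM (shARID1B.3).

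Other strongly closed CYP26B1 sites at 199, 261 and 156 kb changed by -1.35, -1.30 and -1.32. The most accessible of the closed sites, at 29.5 kb (chr2:72113481-72116525), fell from 13.9 ± 1.09 to 7.92 ± 0.578 and 9.57 ± 0.0174 CPM (log2 change -0.67, SE 0.09, FDR 4.35e-09). At -0.639 kb the CYP26B1 promoter site measured 4.35 ± 0.830 CPM in Control against 4.28 ± 0.851 (shARID1A/B.2.3) and 4.25 ± 0.499 (shARID1A/B.4.2), a log2 change of -0.03 (SE 0.13, FDR 0.92).

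**Figure D3:**
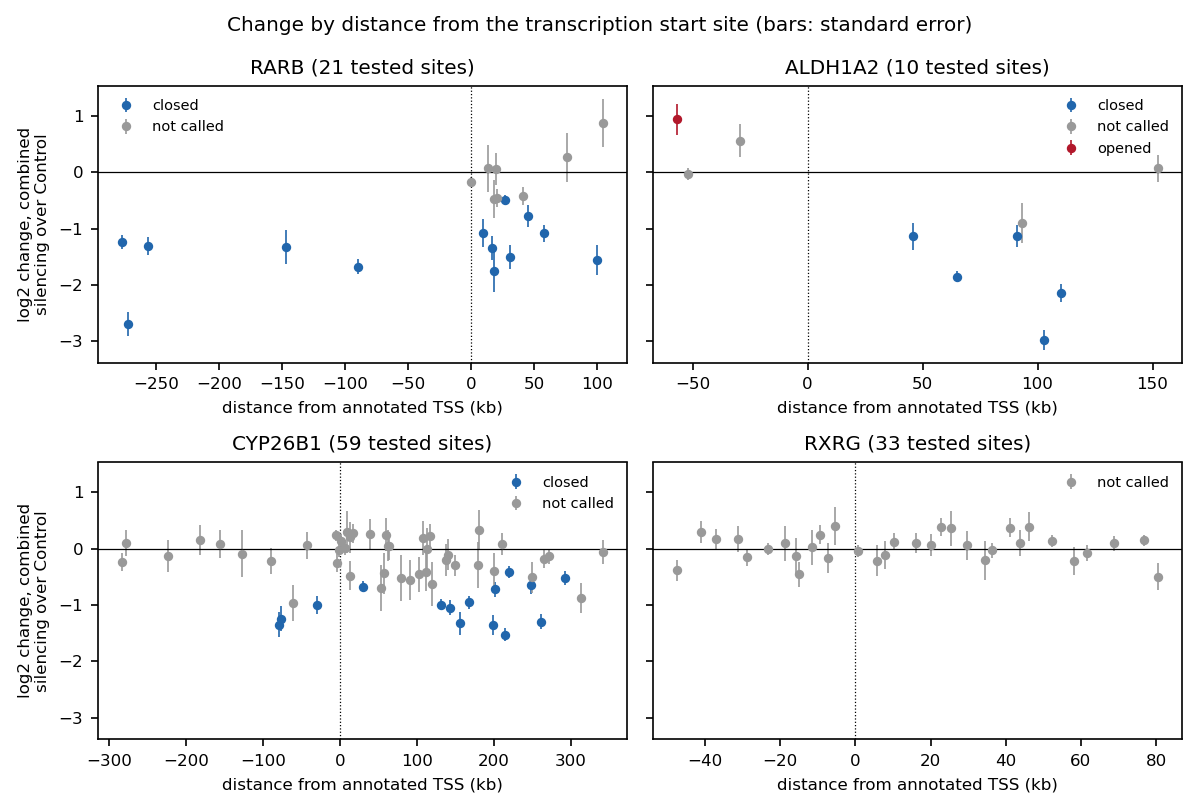
The log2 change after combined silencing (vertical axis, with standard errors) is plotted against distance from the annotated TSS in kb for the tested sites of RARB, ALDH1A2, CYP26B1 and RXRG. Closed sites (blue) lay away from the annotated TSS (dotted line) near the first 3 genes, from -277 to 99.8 kb at RARB, from 46.0 to 110 kb at ALDH1A2 and from -78.9 to 292 kb at CYP26B1, whereas no RXRG site was called.

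By the deposited distances, 42 of the 43 closed sites across the 10 genes lay more than 3 kb from the annotated TSS. Most sites do, since 9 of the 164 tested retinoid gene sites lay within 3 kb. Of the 36610 sites closed among all tested sites, 1554 lay within 3 kb. The deposited distances do not use every RefSeq start of a gene, and other starts lie nearer to some closed sites. The closed RARB site at 30.3 kb (chr3:25458469-25458706) lies just past a RARB promoter window (chr3:25458060-25458359). The closed RARA sites at -19.2 and -15.1 kb lie on either side of a RARA window (chr17:40308930-40309229). Of the 7 sites annotated as promoters none closed and 1 opened, whereas 26 of 87 intergenic and 17 of 64 intronic sites closed. Over all tested sites 4.24% of promoters, 9.39% of intergenic and 12% of intronic sites closed. By distance to the annotated TSS, 1 of 9 retinoid gene sites within 3 kb closed, 16 of 77 between 3 and 50 kb, 7 of 26 between 50 and 100 kb and 19 of 52 beyond 100 kb. These shares are 11.1%, 20.8%, 26.9% and 36.5%, beside 6.21%, 11%, 11.3% and 9.63% of all tested sites in the same bins. The share of closed sites also varied with level. Only 2 of 66 retinoid sites under 1 CPM in Control closed, compared with 16 of 45 from 1 to 3 CPM, 19 of 41 from 3 to 10 CPM and 6 of 12 over 10 CPM, where all tested sites gave 1.67%, 10.8%, 34.1% and 27.5%. Closed retinoid sites had a median width of 1041 bases and 48.7% GC in their central 300 bases, and uncalled ones 698 bases and 54.2%.

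The combinations were also tested one at a time. For shARID1A/B.2.3, 41 sites closed and 1 opened (10.4% and 2.85% of all tested sites), and for shARID1A/B.4.2, 35 closed and 4 opened (7.37% and 3.97%). Both combinations closed 30 sites, 11 passed with shARID1A/B.2.3 alone and 5 with shARID1A/B.4.2 alone, and no site was called in opposite directions. These overlaps were not counted over all tested sites. The comparisons share their Control libraries. Tested against each other, in a contrast added after the data had been seen, the combinations differed at 9 sites, 5 of them lower with shARID1A/B.2.3 and 4 lower with shARID1A/B.4.2 (3.79% and 1.43% of all tested sites). Without replicate 2 of shARID1A/B.2.3, the most deeply sequenced library of that group, 25 sites closed with shARID1A/B.2.3. This library also differed more from replicates 1 and 3 (chi-square per degree of freedom 2.51 and 2.23) than those did from each other (1.09). The cause of the lower count was not tested.

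Single silencing closed fewer sites. Against Control, shARID1A.2 closed 17 and opened 2 (4.54% and 0.834% of all tested sites) and shARID1A.4 24 and 1 (4.17% and 2.28%). For the ARID1B shRNAs the counts were 11 and 1 with shARID1B.2 (1.84% and 1.34%) and 23 and 4 with shARID1B.3 (4.88% and 3.12%). ARID1A silencing, as the mean of both of its shRNAs, closed 26 sites and opened 2 (5.37% and 1.67% of all tested sites), and ARID1B silencing closed 19 and opened 1 (3.53% and 1.39%). The ARID1A count was 17 without Control replicate 1 or without Control replicate 3. Of the 43 sites closed by combined silencing, 26 were also closed by ARID1A silencing, 19 by ARID1B silencing, 15 by both and 13 by neither. The same overlaps were not counted among all 36610 sites closed by combined silencing, so they do not set the retinoid sites apart. At these 43 sites, chosen for their fall in the combinations, the median log2 change was -0.75 after ARID1A silencing, -0.50 after ARID1B silencing and -1.11 after combined silencing.

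The combinations were tested against the mean of the 4 single-shRNA groups, in a contrast that does not use Control. They were lower at 27 sites and higher at none, against 6.85% and 0.969% of all tested sites, and all 27 were among the 43 closed sites. Both contrasts use the same combination libraries, which favours such overlap, and the overlap was not counted over all tested sites. ARID1A and ARID1B silencing were also compared directly. Accessibility was lower after ARID1A silencing at 11 sites and higher at 4 (3.69% and 1.05% of all tested sites), and the first count was 7 without shARID1A.2 replicate 2. Near RARB, 3 sites lay in each direction. Near CYP26B1, 4 sites were lower after ARID1A silencing and 1 was higher. Among the lower ones were 132 kb (log2 difference -0.64, SE 0.08, FDR 1.09e-09) and 143 kb (-0.81, FDR 1.80e-08).

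Counts were finally summed over all sites of a gene. Of the 10 genes 4 were lower after combined silencing and none was higher, beside 20.9% and 15.9% of 26743 genes. ALDH1A2 fell from a Control mean of 39.1 ± 4.04 CPM to 16.2 ± 0.875 (shARID1A/B.2.3) and 19.1 ± 1.24 (shARID1A/B.4.2), a log2 change of -1.16 (SE 0.07, FDR 5.88e-12). RARB fell from 68.9 ± 4.66 to 41.4 ± 3.37 and 39.1 ± 1.89 CPM (-0.78, SE 0.05, FDR 1.31e-10). The sum for CYP26B1, the clearing enzyme with the most sites, fell from 146 ± 4.17 to 113 ± 2.90 and 93.7 ± 1.75 CPM (-0.50, SE 0.04, FDR 1.27e-10). CRABP2 fell from 54.5 ± 4.83 to 35.3 ± 3.60 and 42.2 ± 0.696 CPM (-0.50, SE 0.06, FDR 1.94e-07).

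The other 6 sums did not pass. RARA gave -0.22 (FDR 0.016), CYP26A1 -0.14 (FDR 0.032), RXRA -0.11 (FDR 0.27), RXRB -0.22 (FDR 0.32), RARG -0.06 (FDR 0.53) and RXRG -0.01 (FDR 0.94). With scaling on promoter sites 8 of the 10 sums passed as lower. All 4 genes were also lower in the mean of the combinations than in the mean of the 4 single-shRNA groups, by -0.51 for ALDH1A2, -0.29 for RARB, -0.25 for CRABP2 and -0.19 for CYP26B1, each past the threshold. These genes were chosen for low sums in the same combination libraries, which favours this result, and its share over all genes was not counted. Single groups could lie lower, since CRABP2 measured 35.8 ± 0.756 CPM with shARID1B.3 and CYP26B1 107 ± 0.692 CPM with shARID1A.4. The genes whose summed accessibility followed ALDH1A2 most closely over the 21 libraries were MIR4694, FAM71A and RPS6KA2-IT1, with Pearson correlations of 0.9724, 0.9685 and 0.9676 among 14841 genes with at least 5 sites. These points share groups and scaling, and the values are descriptive.

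**Figure D4:**
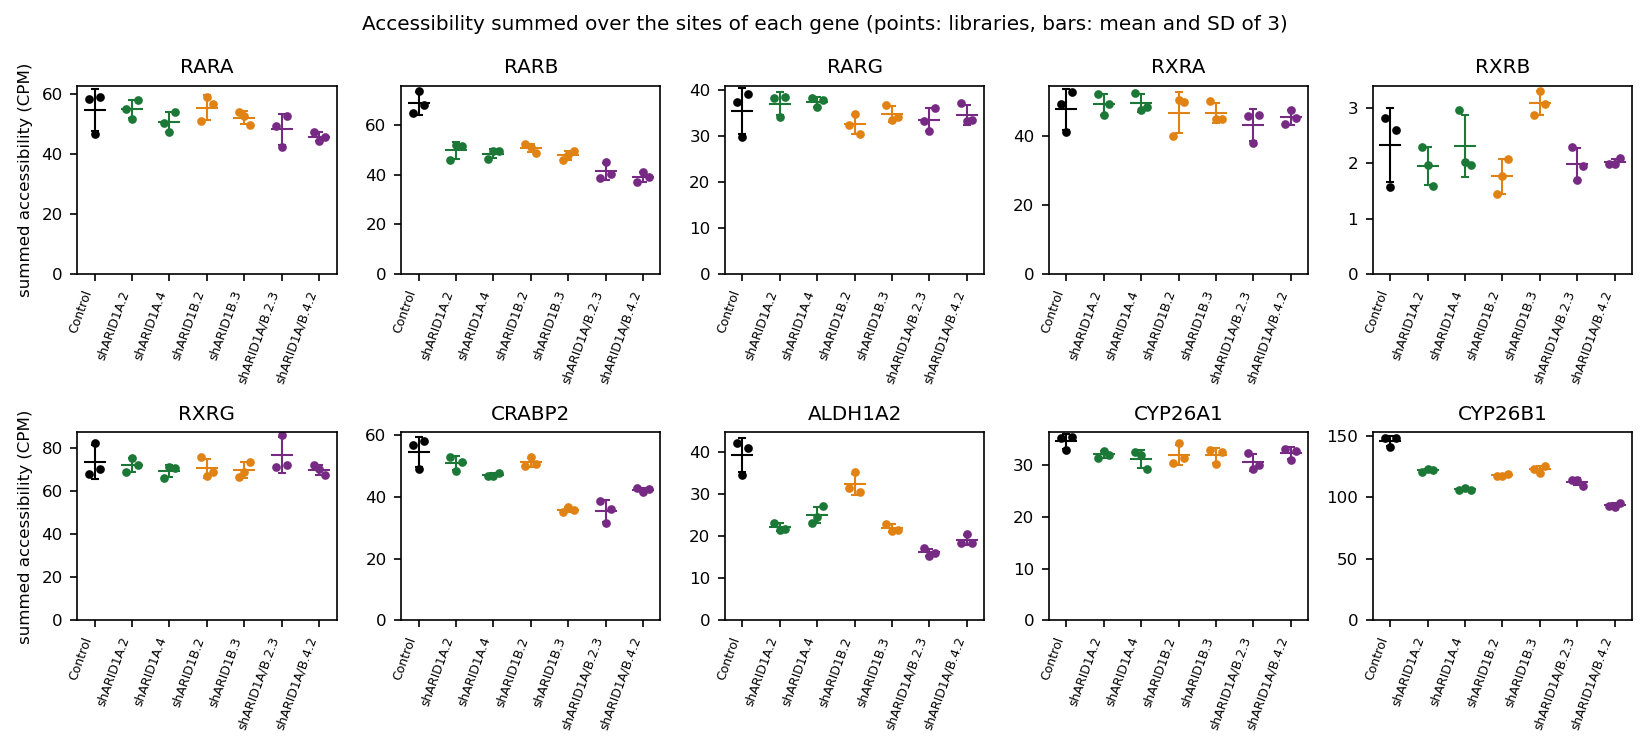
Accessibility in CPM (vertical axes, from 0) summed over all sites of each gene, with points for the libraries and bars for the mean and SD of 3. Sums for RARB, ALDH1A2, CRABP2 and CYP26B1 were lower with both combinations (purple) than in Control (black), whereas those for RXRG, RARG and RXRB overlapped Control.

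Wider parts of the pathway were read from 3 lists. Of 261 tested sites near 20 of 22 listed retinoid transport and metabolism genes, 23 closed and 5 opened. The other genes had no tested site. These shares of 8.81% and 1.92% lay below the 10.3% and 3.43% of all tested sites, and the median log2 change was 0.02. CRABP1, the paralogue of CRABP2, closed at 24 kb (-1.74, FDR 1.39e-15), and RDH5, a retinol dehydrogenase, at 0.923 kb (-1.59, FDR 4.51e-19). In the other direction, a promoter site of ALDH1A3 (0.44, FDR 7.6e-04) and an intronic site of LRAT (0.50, FDR 0.0019) opened. The LRAT site measured 3.58 ± 0.191 CPM in Control, 6.96 ± 1.09 with shARID1A/B.2.3 and 3.68 ± 0.274 with shARID1A/B.4.2. Its rise thus lay in shARID1A/B.2.3 alone. Among 157 sites near 10 receptor co-regulator genes, a list that also held the nuclear receptor PPARD, 21 closed and 12 opened (13.4% and 7.64%). The promoters of the acetyltransferase coactivators CREBBP and EP300 opened by 0.60 (FDR 7.01e-07) and 0.52 (FDR 3.28e-06). Promoters as a class, to which the ALDH1A3 site also belongs, opened in 33.4% of 12310 tested sites. These promoter sites were not read with scaling on promoter sites.

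Of 12 listed symbols of genes known to respond to retinoic acid, 10 had tested sites. RARRES3 and PLAAT4 in this list are symbols of the same gene, and DHRS3 and STRA6 stood in the first list too. Of 84 sites, 17 closed and 4 opened (20.2% and 4.76%, beside 10.3% and 3.43% of all tested sites), with a median log2 change of -0.14. Closed sites lay near 5 genes, with 4 at RET, 7 at MEIS2 and 4 at TGM2. RET, the receptor tyrosine kinase induced by retinoic acid in neuroblastoma cells, closed at a distal upstream site (chr10:43055820-43058022), from 16.6 ± 1.42 to 5.51 ± 0.845 and 8.19 ± 0.852 CPM, a log2 change of -1.31 (SE 0.10, FDR 4.18e-21). MEIS2, a homeobox gene, closed at an intergenic site (-1.80, FDR 2.44e-13) and TGM2, a transglutaminase, at 12.8 kb (-0.94, FDR 7.22e-12).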

How the data were processed

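ATAC-seq reads were aligned to GRCh38 per the labels; the sources used here name neither the aligner nor the peak caller, nor whether reads were shifted to the insertion point. Raw read counts per library were deposited by the authors over 1 consensus set of 367900 sites, with a HOMER annotation giving the nearest gene, the class and the distance to TSS of each site. Normalized counts and the authors' DESeq2 comparisons in the same tables were not used.

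Counts were tested with edgeR 4.0.16 (quasi-likelihood F test, R 4.3.3) in 1 model of all 21 libraries by group, with TMM scaling, filterByExpr (minimum count 10) and Benjamini-Hochberg adjustment over 357029 sites. The common biological coefficient of variation was 0.0817. TMM scaling rests on most sites being unchanged. Depth ranged from 16140029 to 44472230 reads in sites, a 2.76-fold range, and deeper libraries carry less counting error. SE values were derived from the test statistics. Per gene, the site nearest to the TSS and the site with the smallest p-value were named, plus up to 15 closed and 15 opened sites with the largest change and a mean of at least 1 CPM; others were chosen after their values were seen. Alternatives used other scalings, DESeq2 1.42.0, other filters and thresholds, a replicate block, and each library left out, the last with the dispersion trend of all libraries. The tests were checked on simulated counts. The members and gene lists were chosen with earlier results of these data known.

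Same-numbered libraries of different groups deviated together (correlation over 0.1) in 4 of 63 pairs (range -0.16 to 0.305), so the numbers were not taken to pair the libraries. The highest value was between replicate 2 of Control and replicate 2 of shARID1A/B.2.3, groups of the main comparison. Replicate 2 of shARID1A.2 also correlated with both (0.156 and 0.173). The cause of this shared deviation was not tested. Sequences were read from RefSeq promoter windows and the GRCh38 genome, and gene spans from GENCODE v44. Values of some single genes of the marker and pathway lists are not reported here.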

Additional observations from a re-analysis of the deposited data

Results flagged for a closer look

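Several sites near the retinoid genes differed between groups given shRNAs of the same or the other target. ARID1A minus ARID1B silencing gave a log2 difference of -0.36 (SE 0.10, FDR 0.0084) at the RARA site at -3.24 kb, which was uncalled after combined silencing. Near RARB the same difference was -0.48 (SE 0.10, FDR 4.99e-04) at -277 kb, -0.46 (SE 0.11, FDR 0.0015) at -89.8 kb and 0.80 (SE 0.20, FDR 0.0028) at 16.4 kb, where ARID1B silencing lowered accessibility more. Near ALDH1A2 it was -0.69 (SE 0.16, FDR 0.0017) at 91.0 kb and -0.94 (SE 0.14, FDR 9.94e-08) at 110 kb. At the CYP26B1 site at 261 kb it was -0.64 (SE 0.12, FDR 1.83e-05).

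The combinations also differed from each other, in a contrast added after the data had been seen. shARID1A/B.2.3 minus shARID1A/B.4.2 gave 0.68 (SE 0.13, FDR 5.43e-05) at the RARA site at -19.2 kb, and -1.15 (SE 0.24, FDR 3.44e-04) at the ALDH1A2 site at 110 kb. At 1.15 kb in RXRA the difference was -0.83 (SE 0.12, FDR 1.07e-07). The RXRA site measured 7.85 ± 1.28 CPM in Control against 6.37 ± 0.638 (shARID1A/B.2.3) and 11.2 ± 0.790 (shARID1A/B.4.2), and was called as opened with the latter (FDR 6.39e-04).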

How the results depend on the processing

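Of the named sites called after combined silencing, none changed direction under an alternative. Uncalled changes near 0 did, at promoter or TSS sites of RARG, RXRA, RXRG, CYP26A1 and CYP26B1 and at the RARG site at 9.90 kb, such as the RARG promoter from 0.02 to -0.22 with scaling on promoter sites, which moved the median of all sites from 0.03 to -0.20. Of the 43 sites closed by combined silencing, 40 remained closed with DESeq2, 39 with abundance-trended offsets, 42 with only the compared groups in the model, and all 43 with RLE size factors, scaling on promoter sites, no count filter, the replicate block and total counts. The replicate block gave 45 closed and 4 opened. The labels do not say whether a number marks a shared origin, and 4 of 63 same-numbered pairs correlated over 0.1.

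Scaling on promoter sites gave 1 opened site after combined silencing, 1 with shARID1A/B.4.2, 1 for ARID1A silencing, 0 for ARID1B silencing, and 8 lower gene sums. It also gave 54 closed retinoid sites after combined silencing, beside 15.9% of all tested sites in place of 10.3%. An absolute log2 change of at least 1 left 25 closed and 0 opened sites after combined silencing, 27 and 0 with shARID1A/B.2.3, 23 and 0 with shARID1A/B.4.2, 7 and 1 after ARID1A silencing, 6 and 0 after ARID1B silencing, 4 lower in combined than in single silencing, 1 lower and 2 higher in ARID1A against ARID1B silencing, and 1 lower gene sum. Only sites within 100000 bases of the TSS gave 24 closed after combined silencing, 24 with shARID1A/B.2.3, 19 with shARID1A/B.4.2, 13 after ARID1A silencing, 11 after ARID1B silencing, 14 lower than single silencing and 4 lower in ARID1A against ARID1B silencing, since fewer sites were counted. Abundance-trended offsets gave 4 opened with shARID1A/B.2.3, 1 higher than single silencing and 7 higher in ARID1A against ARID1B silencing. Total counts gave 2 opened with shARID1A/B.2.3. An FDR below 0.05 gave 3 opened with shARID1A/B.2.3, 4 for ARID1A silencing, 2 for ARID1B silencing, 4 higher than single silencing and 8 higher in ARID1A against ARID1B silencing. DESeq2 gave 1 opened for ARID1A silencing, 0 for ARID1B silencing, and 1 higher in ARID1A against ARID1B silencing. Except where a setting counts fewer sites or changes the threshold, the cause was not tested.

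Leaving out each library in turn gave 37 to 44 closed and 1 to 4 opened sites after combined silencing, 25 to 44 and 1 to 3 with shARID1A/B.2.3, 28 to 36 and 1 to 4 with shARID1A/B.4.2, 17 to 26 and 1 to 4 for ARID1A silencing, and 13 to 19 and 0 to 1 for ARID1B silencing. It gave 21 to 29 lower and 0 to 2 higher than single silencing, 7 to 11 lower and 2 to 6 higher in ARID1A against ARID1B silencing, and 4 to 5 lower and 0 higher gene sums. The uncalled RARA site at -3.24 kb (FDR 0.013) passed as closed with scaling on promoter sites (-0.61), the replicate block (-0.38), total counts (-0.37), and without Control replicate 2 (-0.50) or shARID1A/B.2.3 replicate 1 (-0.42). Counting error limits sites under 1 CPM, of which few could pass.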

Other observations

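Single shRNAs against the same gene gave different values at some of the sites near the retinoid genes. Differences between shRNAs of 1 target were not tested, and the sites below were chosen after their values were seen. The closed CRABP2 site at 2.03 kb measured 25.1 ± 1.05 CPM with shARID1B.2 and 14.7 ± 1.16 with shARID1B.3, the latter within the range of the combinations. Against Control these were log2 changes of -0.16 (FDR 0.40) and -0.92 (FDR 4.4e-13). At the RARA site at -11.7 kb, shARID1B.3 gave 1.63 ± 0.273 CPM and shARID1B.2 3.93 ± 0.698, beside 1.35 ± 0.298 with shARID1A/B.2.3, 3.40 ± 0.236 with shARID1A/B.4.2 and 3.60 ± 0.950 in Control.

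At the ALDH1A2 site at 110 kb, shARID1B.2 measured 5.29 ± 1.5 CPM and shARID1B.3 1.81 ± 0.229, while shARID1A.2 had 0.991 ± 0.121 and shARID1A.4 2.62 ± 0.436. The CYP26B1 site at 168 kb fell with shARID1A.4 (log2 change -0.53, FDR 0.0027) and shARID1B.2 (-0.57, FDR 0.0024), and reached 2.41 ± 0.412 CPM with shARID1A/B.4.2 against 5.41 ± 0.467 with shARID1A/B.2.3 and 7.02 ± 0.315 in Control.

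The GATA motif AGATAA (either strand), looked for after the calls had been seen, was present in the central 300 bases of 9 of 43 closed retinoid gene sites and 7 of 118 uncalled ones. Over all tested sites it was present in 24.7% of closed and 16.5% of uncalled sites. The AP-1 motif TGANTCA was present in 5 of the 43 and 6 of the 118, and in 14.3% and 10.7% of all closed and uncalled sites. These shares are descriptions of sequence, without a test.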
